A study of Mus musculus with 36 samples.

Results

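The genes that make cholesterol and fatty acids were followed through the first days of gonad differentiation in the mouse. They were 33 listed genes, chosen by name for their roles in these pathways, with earlier results of these data known. Of these, 31 were measured among the 19938 genes with their own probe set, and Acat2 and Soat1 had no probe set that names 1 gene alone. The series holds 36 arrays, 3 for each of 12 groups. A group is 1 sorted cell class (germ cells, or the supporting cells that give rise to Sertoli or granulosa cells), 1 karyotype (XX or XY) and 1 stage (11.5, 12.5 or 13.5 days post coitum, dpc).

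The animals differed between groups in more than karyotype and stage. All 6 germ cell groups came from fetuses with an Oct4 reporter, progeny of C57BL/6NJ on a mixed background. XX supporting cells of every stage and XY supporting cells at 11.5 dpc carried Tg(Sry-EGFP)92Ei and were progeny of CD-1. XY supporting cells at 12.5 and 13.5 dpc carried Tg(Sox9-cre/ERT2)1Msan/J and were progeny of C57BL/6. In supporting cells the karyotypes at 12.5 and 13.5 dpc, the stages in XY gonads and any change of the karyotype difference therefore cannot be told apart from the reporter line and strain. The same holds for germ against supporting cells at every stage, and for the karyotype difference at 13.5 dpc compared between them. Gonads of each karyotype were pooled before sorting, and no label states whether replicate arrays were made from separate pools, so each p-value below reflects the spread among these arrays alone, which may be technical.

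Cholesterol is built from acetyl-CoA through mevalonate and squalene. Cells govern this route with the membrane-bound transcription factor SREBP2 (Srebf2), which SCAP escorts to the Golgi when sterols are low and INSIG proteins hold back when sterols are high. SREBP1 (Srebf1) does the same for fatty acid synthesis, in which ATP citrate lyase (Acly) and acetyl-CoA synthetase (Acss2) supply acetyl-CoA, acetyl-CoA carboxylase (Acaca) and fatty acid synthase (Fasn) build the chain, Elovl6 lengthens it and the stearoyl-CoA desaturases Scd1 and Scd2 put in a double bond. In the gonad, cholesterol is also the precursor of steroid hormones.

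The sorted cells carried the markers of their class, with 2 exceptions. The mean of 8 germ cell markers lay between 10.57 and 11.14 on the log2 scale in the germ cell arrays used and between 5.58 and 6.86 in supporting cell arrays. In supporting cells it lay at 5.58 to 5.89 (XX) and 5.66 to 5.81 (XY) at 11.5 dpc. At 13.5 dpc it lay at 6.06 to 6.86 (XX) and 6.27 to 6.33 (XY). The part of germ cells in the supporting cell values was not tested. The mean of 8 supporting cell markers lay between 8.76 and 9.49 in supporting cells and between 6.33 and 6.89 in germ cells. Foxl2, a granulosa cell factor, showed no rise in XX supporting cells, at 6.05 to 6.57 at 13.5 dpc against 6.04 to 6.32 in XY cells, while Fst, an early marker of the ovarian supporting lineage, averaged 11.95 against 6.65. The third XX germ cell array at 12.5 dpc had the germ cell markers Ddx4 at 5.04 and Pou5f1 at 5.07 and the stromal markers Tcf21 at 10.82 and Dcn at 10.11, so it was left out, which leaves 35 arrays and 2 XX germ cell arrays at 12.5 dpc. Array medians lay between 6.54 and 7.01.

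Sequences before the start site are shown because SREBP acts at a short DNA element together with the CCAAT-binding factor NF-Y. RefSeq windows on GRCm38.p6, from 250 bases before to 50 bases after a gene's annotated start, covered 25 of the 31 genes. Fdps, Fdft1, Sqle, Scd1, Scd2 and Stard4 had no window. Letters of a sterol regulatory element, TCACNCCAC on either strand, occurred in the window of 1 of the 25 genes, Hmgcs1, and of 1.44% of all 27025 genes with a window. CCAAT on either strand occurred in windows of 21 of the 25 genes (84%) and of 41.1% of all genes. The GC box letters GGGCGG occurred for 21 of the 25 genes and for 38.2% of all genes, and the palindrome CACGTG for 6 of the 25 and for 8.09%. A match describes letters, and these data did not measure binding. Hmgcs1 is shown because it holds the sterol element, and Nsdhl, chosen after its values were seen, because it had the largest difference between XY and XX supporting cells among the sterol enzymes at 12.5 and 13.5 dpc. The 250 bases before each start are printed 5′ to 3′ on the plus strand with the element and the CCAAT matches (ATTGG on the other strand) in capitals. Hmgcs1 lies at chr13:119690101-119690350 with 1 element and 3 of its 4 CCAAT matches in these bases, and Nsdhl at chrX:72918271-72918520 with 2 of its 4.
Hmgcs1: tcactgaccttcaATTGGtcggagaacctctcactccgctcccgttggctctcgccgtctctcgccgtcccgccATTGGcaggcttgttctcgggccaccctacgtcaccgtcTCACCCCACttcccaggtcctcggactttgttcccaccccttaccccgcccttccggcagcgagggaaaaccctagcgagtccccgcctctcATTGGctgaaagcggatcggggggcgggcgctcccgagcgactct
Nsdhl: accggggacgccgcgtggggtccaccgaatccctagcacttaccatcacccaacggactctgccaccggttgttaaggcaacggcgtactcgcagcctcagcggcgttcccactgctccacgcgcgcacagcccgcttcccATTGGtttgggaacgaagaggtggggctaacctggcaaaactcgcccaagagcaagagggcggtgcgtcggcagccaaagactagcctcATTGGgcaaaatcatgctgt

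Across the 12 groups the genes differed widely in how far their level moved. The gap between the highest and the lowest group mean had a median of 1.41 over the 31 genes, beside 0.76 over all genes. The 31 genes were not matched by level to all genes, here or in the shares below. Levels are log2 values of a probe set and are compared only within a gene. Scd2 had the widest gap, 4.45, from 12.02 in XY supporting cells at 12.5 dpc to 7.57 in XX germ cells at 13.5 dpc. Idi1 followed with 2.92, and Nsdhl with 2.31. Srebf1, the regulator of fatty acid synthesis, had the narrowest gap, 0.39, and Mvk, Mvd and Pmvk of the mevalonate route spanned 0.50, 0.53 and 0.56.

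**Figure D1:**
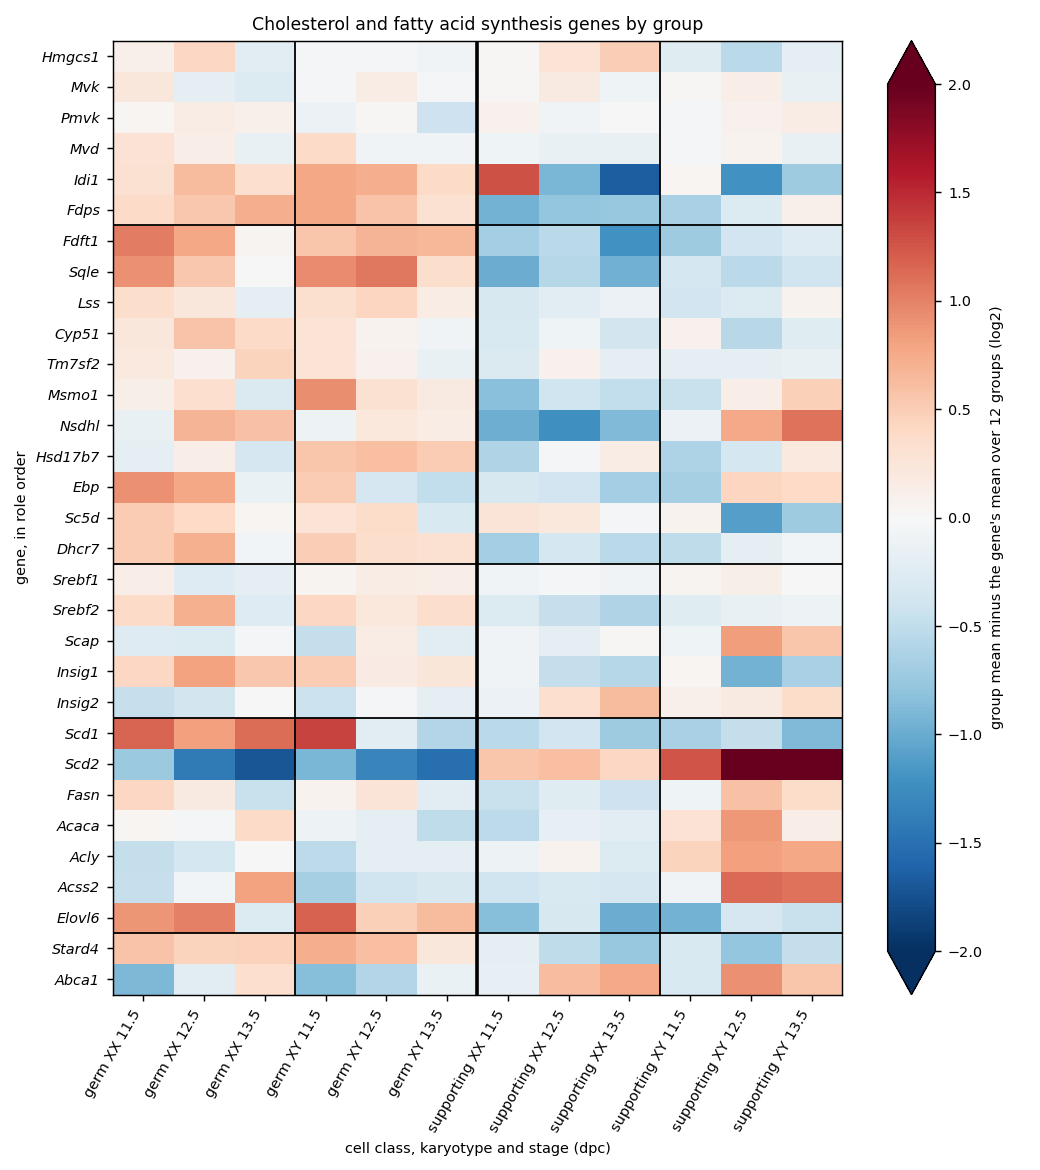
Rows are the 31 measured genes in the order of their roles and columns the 12 groups. Colour gives the group mean minus the gene's mean over the 12 groups, in log2 units, and is clipped at 2. Sterol enzymes from Fdps to Dhcr7 are mostly red in germ cells at 11.5 dpc, and Scd2, Acly and Acss2 are red in XY supporting cells at 12.5 and 13.5 dpc.

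Differences below are log2 values with a standard error (SE) from the limma fit over all 12 groups, in which a gene counts as changed when its Benjamini-Hochberg adjusted p over all 19938 genes is under 0.05. In a sorted pool, fewer cells of a type and less RNA per cell cannot be told apart. Within each array the deposited values fell into interleaved sets of rows on slightly different scales. Aligning these sets moved the median difference of all genes by over 0.1 in 3 comparisons, from 0.106 to 0.003 for germ against supporting cells at 11.5 dpc, from 0.141 to 0.008 for the same contrast in XY gonads at 13.5 dpc and from -0.142 to -0.030 for XX germ cells over time. No called difference of the 31 genes changed its sign under alignment, centring or quantile normalisation.

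At 11.5 dpc germ cells gave higher levels than supporting cells for most enzymes of the squalene arm. With XX and XY averaged, 16 of 31 genes were higher in germ cells, beside 24.1% of all genes, and 4 were lower, beside 11%. With quantile normalisation the split was 13 and 7. The median difference was 0.42 over the 31 genes and 0.11 over all genes. Of the 11 enzymes from squalene to cholesterol, 8 were higher in germ cells and none lower by limma, with all 11 differences above 0 and a median of 0.80. In the mevalonate arm, 2 of 6 were higher.

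Sqle, which makes the epoxide of squalene and is a rate-limiting step, stood at 10.63, 10.27 and 10.30 in XX germ cells and 10.43, 10.14 and 10.71 in XY germ cells. Supporting cells stood at 8.59, 8.51 and 8.37 (XX) and 9.38, 8.83 and 9.19 (XY). Every germ cell array lay above every supporting cell array, and the difference was 1.60 (SE 0.15, adjusted p = 4.87e-13). Fdps, which makes farnesyl diphosphate, differed by 1.38 (SE 0.15, adjusted p = 4.13e-11), with germ cells at 9.63 to 10.52 and supporting cells at 8.27 to 8.81. Fdft1, the squalene synthase, differed by 1.49 (adjusted p = 7.81e-09), and its other probe set by 1.68 (adjusted p = 2.04e-11). Ebp, a sterol isomerase, differed by 1.20 (adjusted p = 8.45e-06) and Msmo1 by 1.16 (adjusted p = 1.67e-06). Cyp51 (0.36, adjusted p = 0.0605), Nsdhl (0.42, 0.0646) and Sc5d did not pass.

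The fatty acid genes split between the cell classes. Elovl6 stood at 9.96 to 10.60 in germ cells at 11.5 dpc and at 7.09 to 8.97 in supporting cells, a difference of 1.92 (SE 0.21, adjusted p = 7.22e-11). Scd1 stood at 8.03, 7.32 and 6.66 in XX germ cells and 7.39, 7.46 and 7.73 in XY germ cells, above the 5.47 to 5.85 of supporting cells, by 1.86 (SE 0.17, adjusted p = 4.29e-13). Scd2, a desaturase of the same family, ran the other way, at 8.06 to 8.82 in germ cells and 9.79 to 10.65 in supporting cells, a difference of -1.73 (SE 0.15, adjusted p = 1.28e-14). The groups of neither desaturase overlapped. Acly was lower in germ cells by 0.67 (difference -0.67, adjusted p = 1.39e-05).

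Among the regulators, Srebf2 was higher in germ cells by 0.66 (SE 0.14, adjusted p = 0.000109). Insig1, itself a target of SREBP2, was higher by 0.48 (adjusted p = 0.0282) and Insig2 differed by -0.43 (adjusted p = 0.0281), and each of these calls was lost in 6 of 12 fits without 1 array, with adjusted p up to 0.113. Srebf1 and Scap (-0.30, adjusted p = 0.0978) did not pass. Stard4, a carrier that moves cholesterol between membranes, was higher in germ cells by 0.90 (adjusted p = 3.48e-05). Abca1, which exports cholesterol from the cell, differed by -0.65 (adjusted p = 0.000476).

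At 13.5 dpc several fatty acid genes and Nsdhl stood differently in the XX and XY gonads, and the test of that difference comes last below. Fasn (adjusted p = 0.295) and Elovl6 (adjusted p = 0.768) did not pass that test by limma. With row sets aligned Fasn passed (adjusted p = 0.0149) and Elovl6 did not (adjusted p = 0.734). In XX gonads 12 of 31 genes were higher in germ cells, beside 14.8% of all genes, and 3 were lower, beside 11.6%. Among these, Acaca, Hmgcs1, Tm7sf2 and Insig2 each lost their XX call in 4 of 6 fits without 1 array. Acaca differed by 0.61 in XX gonads (adjusted p = 0.032), and its second probe set by 0.44 (adjusted p = 0.277). In XY gonads 6 were higher, beside 14.3%, and 9 lower, beside 10.8%, with 5 of the 7 fatty acid genes among the 9. Of these 5, Fasn (-0.60, adjusted p = 0.03) lost its call in 5 of 6 fits without 1 array and Acaca (-0.62, adjusted p = 0.0308) in 4 of 6, and the second Acaca probe set gave 0.12 (adjusted p = 0.807). The median difference of the fatty acid genes was 0.61 in XX gonads and -0.62 in XY gonads, beside 0.03 and 0.14 over all genes. Nsdhl, a decarboxylating sterol dehydrogenase, was 1.48 higher in germ cells of XX gonads (SE 0.25, adjusted p = 4.91e-06) and differed by -0.94 in XY gonads (adjusted p = 0.00326). Acss2 was 1.14 higher in germ cells of XX gonads (SE 0.24, adjusted p = 0.000138) and differed by -1.40 in XY gonads (adjusted p = 5.17e-06). The XY call of Nsdhl was lost without the first XY germ cell array (-0.70, adjusted p = 0.0539). Scd2 differed by -2.12 (SE 0.21, adjusted p = 2.99e-12) and by -3.57 (adjusted p = 4.71e-20). Scd1 (1.84, adjusted p = 2.54e-08) and Fdps (1.49, adjusted p = 9.18e-08) were higher in germ cells of XX gonads, where XY gonads gave 0.30 and 0.21 (adjusted p = 0.445 and 0.54). Elovl6 (1.07, adjusted p = 0.00479) was higher and Acly (-0.97, adjusted p = 1.83e-05) and Ebp (-0.90, adjusted p = 0.0253) were lower in germ cells of XY gonads, the call of Ebp being lost in 4 of 6 fits without 1 array. Idi1, Sqle, Fdft1, Insig1 and Stard4 were higher in germ cells at both karyotypes, Idi1 by 1.98 in XX and 1.10 in XY gonads. For Fdft1, Insig1 and Stard4 the XY call was lost without 1 array (adjusted p up to 0.0524, 0.0605 and 0.267), the first XY supporting array for Fdft1, the second XY germ cell array for Insig1, and any of 5 of the 6 for Stard4.

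**Figure D2:**
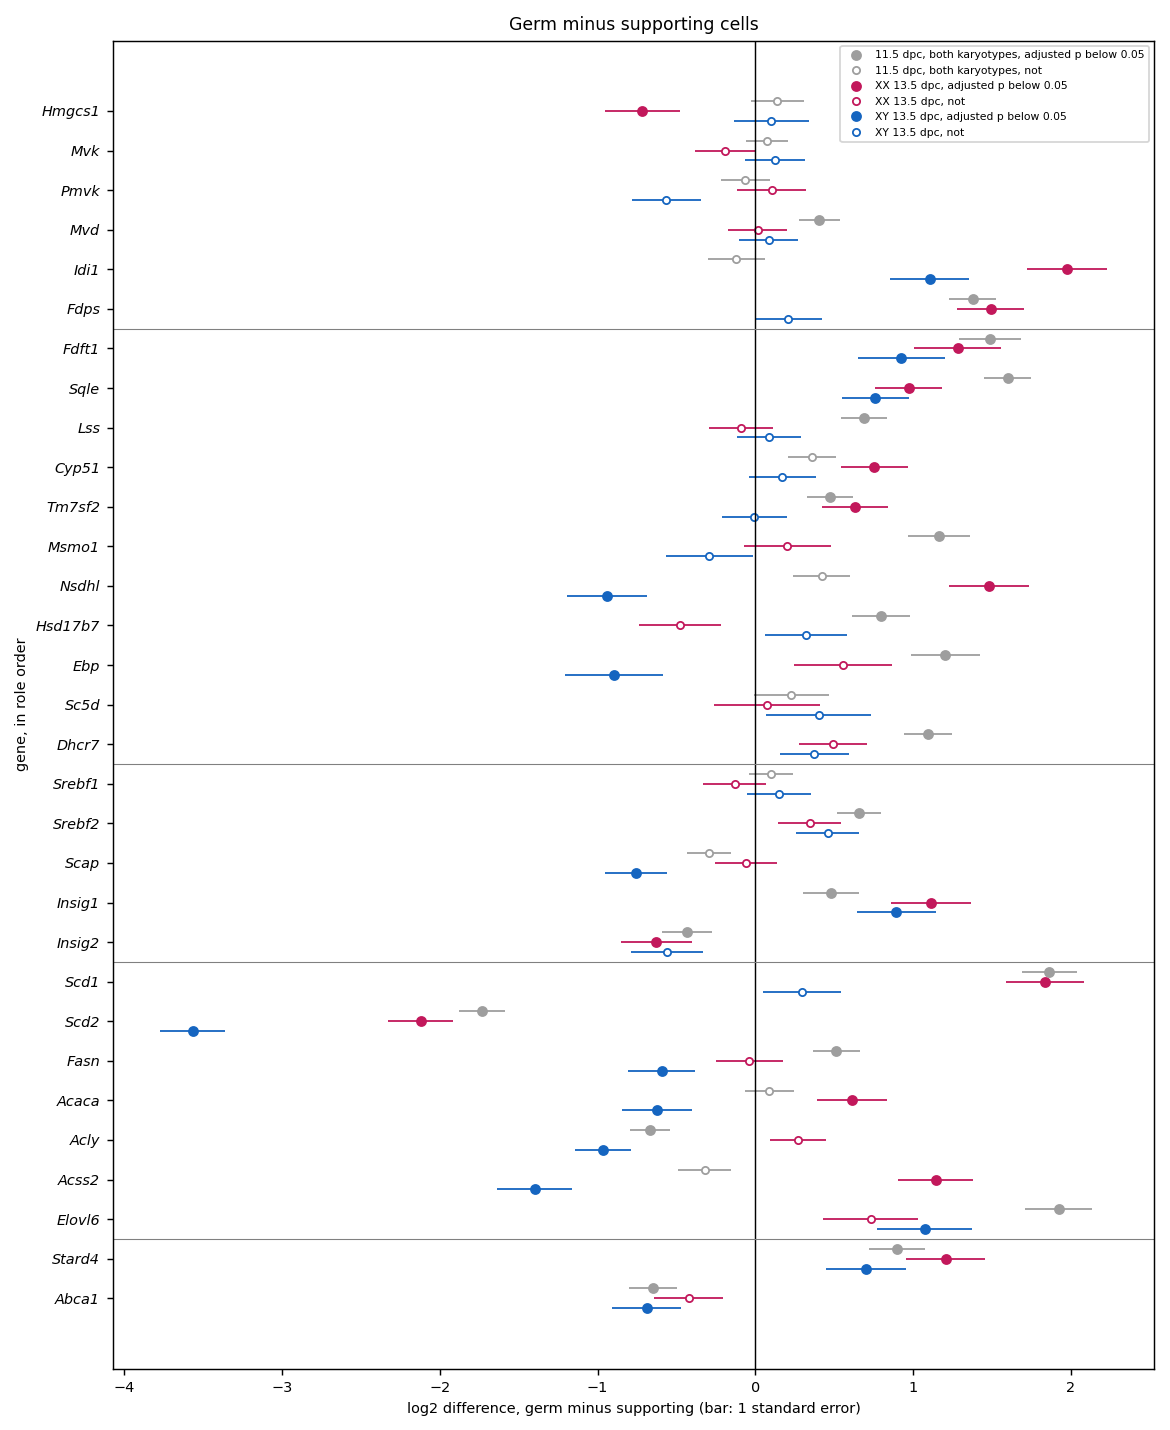
Each point is the log2 difference of germ minus supporting cells for 1 gene, at 11.5 dpc (grey), in XX gonads at 13.5 dpc (red) and in XY gonads at 13.5 dpc (blue), with a bar of 1 SE and filled where the adjusted p is below 0.05. The blue points of Scd2 (-3.57), Acss2 (-1.40) and Nsdhl (-0.94) lie left of 0 while the red points of Acss2 (1.14) and Nsdhl (1.48) lie right of it.

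Supporting cells gave higher levels of several synthesis genes in XY than in XX gonads. At 11.5 dpc 3 of 31 genes were higher in XY cells, beside 1.62% of all genes, and 1 was lower, beside 1.71%. With row sets aligned the split was 6 and 1. With all 36 arrays the only call left at this stage was Idi1, lower in XY cells (adjusted p = 0.0173 by limma). Acaca (adjusted p = 0.0591), Nsdhl (0.148) and Scd2 (0.742) no longer passed in that fit. The array it adds is of XX germ cells at 12.5 dpc, so the differences themselves were the same in both fits. At 12.5 dpc 7 were higher, beside 8.48%, and 2 lower, beside 4.89%, and with row sets aligned the split was 14 and 2. At 13.5 dpc 10 were higher, beside 7.21%, and none lower by limma, beside 5.02%. The median difference of the 31 genes was 0.04, 0.15 and 0.35 at the 3 stages, beside -0.06, 0.04 and -0.02 over all genes. Of the 7 fatty acid genes, 2, 5 and 4 were higher in XY cells, with medians of 0.35, 0.83 and 0.78. At 11.5 dpc both karyotypes carried the same reporter line, and at the later stages the line differed.

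Scd2 stood at 9.79, 9.90 and 9.80 in XX supporting cells at 11.5 dpc and at 10.48, 10.46 and 10.65 in XY cells. At 12.5 dpc the XX arrays stood at 9.93, 9.77 and 9.92 and the XY arrays at 12.38, 11.63 and 12.04. At 13.5 dpc they stood at 10.21, 9.59 and 9.26 and at 11.22, 11.32 and 11.47. The karyotypes did not overlap at any stage. The differences were 0.70 (SE 0.21, adjusted p = 0.045), 2.15 (SE 0.21, adjusted p = 5.5e-12) and 1.65 (SE 0.21, adjusted p = 1.13e-08). The first of these was lost in all 6 fits without 1 array, with adjusted p from 0.0863 to 0.215, although each difference was at least 0.64.

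Nsdhl, whose gene is on the X chromosome, stood at 8.18, 7.16 and 8.50 in XX supporting cells at 12.5 dpc and at 10.17, 9.57 and 10.04 in XY cells. At 13.5 dpc it stood at 8.34, 8.48 and 8.04 and at 10.24, 10.28 and 10.25. The karyotypes lay apart by 1.98 (SE 0.25, adjusted p = 1.75e-08) and 1.97 (SE 0.25, adjusted p = 2.18e-08). At 11.5 dpc the difference was 0.86 (adjusted p = 0.0444), and it was lost in 5 of 6 fits without 1 array (adjusted p up to 0.334, without the second XX array). In germ cells Nsdhl differed between karyotypes at none of the stages by limma.

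Acss2 stood at 6.93, 6.83 and 6.34 in XX supporting cells at 12.5 dpc and at 8.51, 7.79 and 8.12 in XY cells, and at 13.5 dpc at 6.85, 6.57 and 6.59 and at 8.12, 8.05 and 8.10. The karyotypes did not overlap, with differences of 1.44 (SE 0.24, adjusted p = 6.08e-06) and 1.42 (adjusted p = 8.53e-06). Acly, the other source of acetyl-CoA, was higher in XY cells by 0.76 (SE 0.18, adjusted p = 0.00134) and 1.06 (adjusted p = 8.05e-06). Fasn was higher by 0.83 (adjusted p = 0.00365) and 0.78 (adjusted p = 0.0069). The call of Fasn at 12.5 dpc rested on the first XY array, without which the difference was 0.51 (adjusted p = 0.141), and that at 13.5 dpc on the third XX array (0.65 without it, adjusted p = 0.0799).

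Acaca gave values that depended on the probe set. The probe set with the higher mean was higher in XY cells at 12.5 dpc by 1.03 (SE 0.22, adjusted p = 0.000453), while the second differed by 0.01 (SE 0.27, adjusted p = 0.996). At 11.5 dpc both were higher in XY cells, by 0.82 (adjusted p = 0.0202) and 1.17 (adjusted p = 0.00406). The call of the first probe set at 11.5 dpc was lost in 4 of 6 fits without 1 array (adjusted p up to 0.151). Scd1 (-0.11, -0.10 and -0.17 at the 3 stages) and Elovl6 (-0.02 at 12.5 and 0.55 at 13.5 dpc) did not pass in supporting cells.

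More sterol enzymes passed at 13.5 dpc, 4 of 11 in the squalene arm and 2 of 6 in the mevalonate arm. Beside Nsdhl, the enzymes higher in XY supporting cells were Ebp (1.08, SE 0.31, adjusted p = 0.0119), Fdft1 (0.97, SE 0.28, adjusted p = 0.0118), Msmo1 (0.96, SE 0.28, adjusted p = 0.0113), Idi1 (0.93, SE 0.25, adjusted p = 0.00707) and Fdps (0.86, SE 0.21, adjusted p = 0.00262). Msmo1, which removes methyl groups from the sterol ring, stood at 8.30, 8.17 and 7.89 in XX cells and 9.12, 8.97 and 9.16 in XY cells. Fdps kept its call without any 1 array. Ebp, whose gene is on the X chromosome like that of Nsdhl, lost its call without the third XY array (0.99, adjusted p = 0.0639). Msmo1 lost its call without the third XX array (0.85, adjusted p = 0.074). Fdft1 lost it without either of these arrays (adjusted p up to 0.179), though its second probe set differed by 1.13 (adjusted p = 0.000754). Idi1 lost it without the second XX or the third XY array (adjusted p up to 0.089).

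Of the 5 regulators, 1 passed between karyotypes in supporting cells, at 12.5 dpc. Scap, the escort of SREBP, stood at 8.82, 8.79 and 8.60 in XX supporting cells at 12.5 dpc and 9.77, 9.48 and 10.01 in XY cells, a difference of 1.02 (SE 0.20, adjusted p = 9.51e-05). At 13.5 dpc it differed by 0.53 (adjusted p = 0.0762). Srebf2 differed by 0.50 at 13.5 dpc (adjusted p = 0.104), and Srebf1 by 0.12, 0.15 and 0.06 at the 3 stages. Neither cholesterol handling gene changed at any stage between XX and XY supporting cells.

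Enzymes at both ends of the sterol route ran the other way at 12.5 dpc. Sc5d, a late desaturase of the sterol ring, stood at 7.86, 8.90 and 7.37 in XX cells and 6.60, 6.51 and 7.10 in XY cells, a difference of -1.31 (SE 0.34, adjusted p = 0.00371) that was lost without the second XX array (-0.88, adjusted p = 0.104). Hmgcs1, which makes HMG-CoA and whose element is printed above, stood at 10.56, 10.61 and 10.25 and at 9.79, 9.32 and 9.88, a difference of -0.81 (SE 0.24, adjusted p = 0.0144). The call of Hmgcs1 was lost without the first or second XX array or the second XY array (adjusted p up to 0.112).

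**Figure D3:**
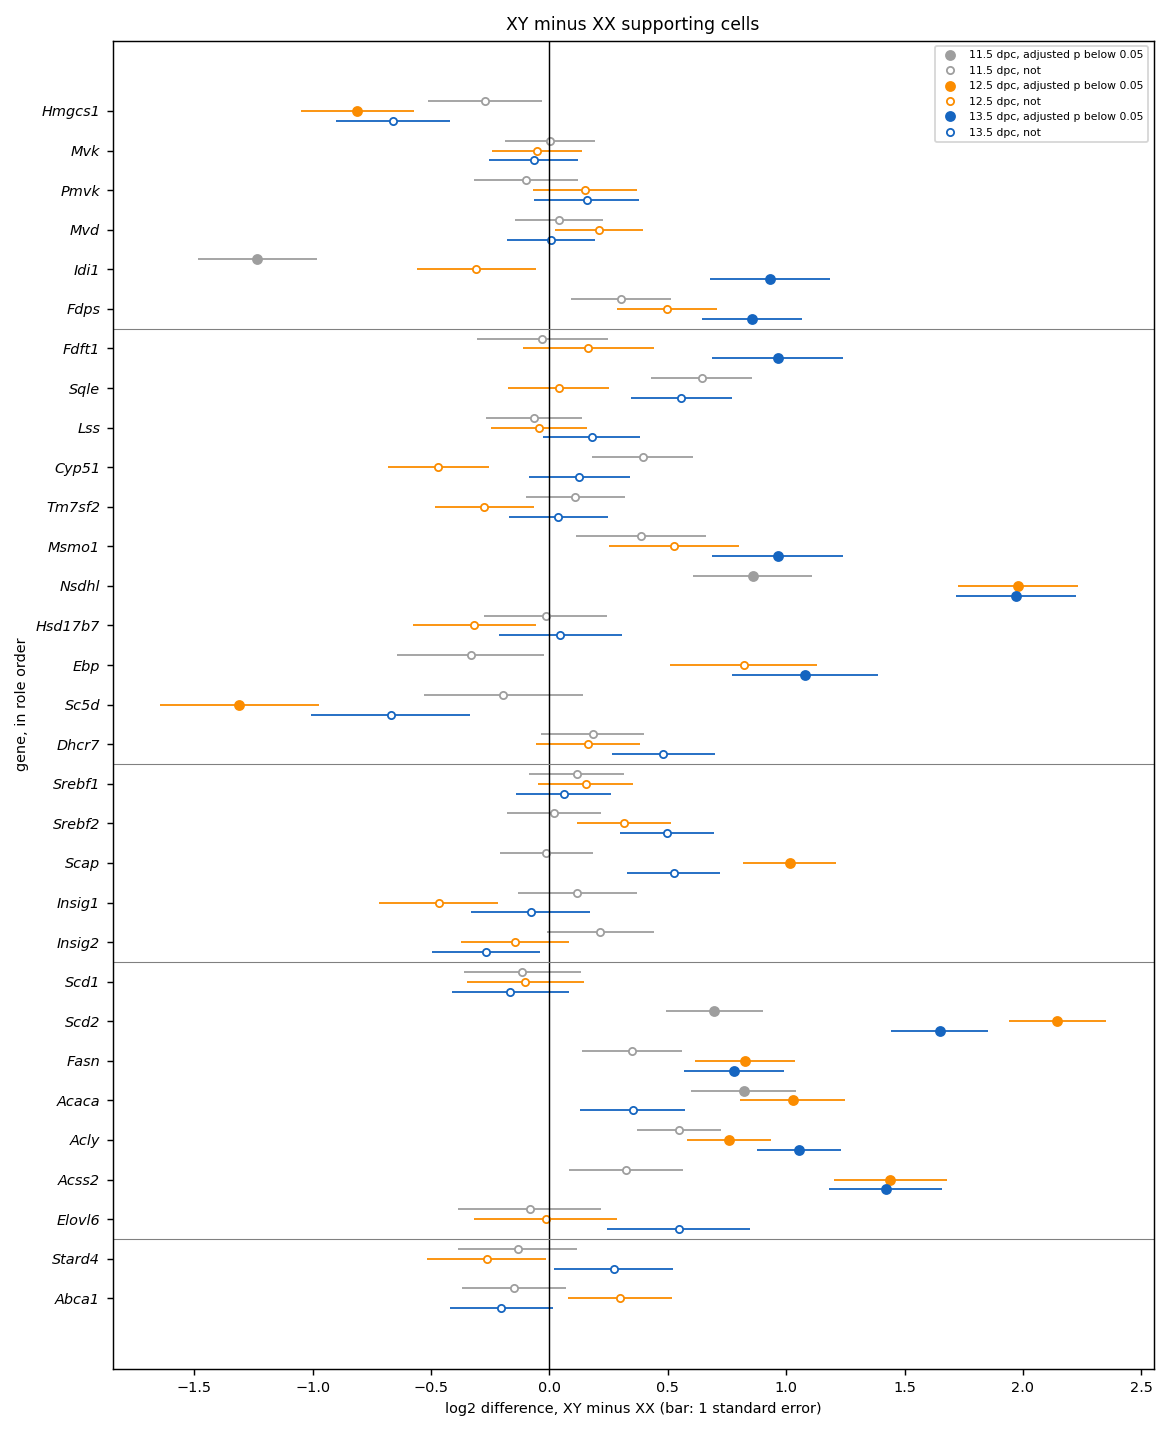
Each point is the log2 difference of XY minus XX supporting cells for 1 gene at 11.5 dpc (grey), 12.5 dpc (orange) and 13.5 dpc (blue), with a bar of 1 SE and filled where the adjusted p is below 0.05. Scd2 (2.15 and 1.65), Nsdhl (1.98 and 1.97) and Acss2 (1.44 and 1.42) lie farthest to the right at the later stages, and Sc5d (-1.31) and Idi1 (-1.23) farthest to the left at 12.5 and 11.5 dpc.

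Related pathways were counted over lists of further genes. Of 15 measured genes for other steps of fatty acid synthesis and elongation, 2, 3 and 5 were higher in XY supporting cells at the 3 stages, beside 1.62%, 8.48% and 7.21% of all genes, and none lower by limma. Me1, which supplies NADPH for fatty acid synthesis, averaged 10.06 in XX and 11.81 in XY cells at 12.5 dpc (1.75, SE 0.22, adjusted p = 1.2e-08) and 10.12 and 11.94 at 13.5 dpc (1.82, adjusted p = 4.42e-09). Acsl4, which activates long polyunsaturated fatty acids, was higher at 13.5 dpc by 1.56 (SE 0.22, adjusted p = 1.42e-07). Of 8 measured genes of fatty acid oxidation, 3, 6 and 4 were lower in XY cells, beside 1.71%, 4.89% and 5.02% of all genes, and none higher by limma. Hadhb of the mitochondrial trifunctional protein differed by -1.31 at 12.5 dpc (adjusted p = 4.85e-06) and -1.29 at 13.5 dpc (adjusted p = 6.59e-06), and Ppara, the transcription factor of fatty acid breakdown, by -0.92, -1.24 and -0.88 at the 3 stages. Of 11 genes of cholesterol uptake, transport and storage, 4 were higher and 2 lower at 12.5 dpc, and 2 higher and 2 lower at 13.5 dpc, to be read against the same shares. Of 5 measured genes of sterol sensing and SREBP cleavage and of 2 other sterol synthesis enzymes, none passed by limma at any stage between XX and XY supporting cells. Scarb1, a receptor for high-density lipoprotein, was higher by 1.05 (adjusted p = 0.000419) and 0.96 (adjusted p = 0.00132), while Npc1, which releases cholesterol from lysosomes, differed by -0.96 and -1.25.

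Steroidogenic markers moved with part of this pattern. Their mean over 4 measured genes of 5 lay at 5.66 to 5.74 in XX and 6.91 to 7.20 in XY supporting cells at 13.5 dpc, and at 5.55 to 6.13 and 5.89 to 6.42 at 12.5 dpc. Cyp17a1, a defining enzyme of fetal Leydig cells, stood at 5.47 to 5.60 and 7.30 to 7.76 at 13.5 dpc, and at 5.10 to 5.95 and 5.23 to 6.23 at 12.5 dpc. The part of steroidogenic cells in the values at either stage was not tested.

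Idi1 reversed its order. This enzyme turns isopentenyl diphosphate into the starter of the isoprenoid chain. In XX supporting cells it stood at 9.56, 9.58 and 9.57 at 11.5 dpc, at 6.84, 8.06 and 7.24 at 12.5 dpc and at 6.91, 6.27 and 6.75 at 13.5 dpc. The XX cells fell by 2.92 from 11.5 to 13.5 dpc (difference -2.92, SE 0.25, adjusted p = 9.12e-13), and the second probe set gave -2.77 (adjusted p = 1.32e-11). In XY supporting cells the arrays stood at 8.23, 8.26 and 8.51, then 7.15, 6.61 and 7.46, then 7.55, 7.34 and 7.83. XY cells were thus lower at 11.5 dpc by 1.23 (difference -1.23, SE 0.25, adjusted p = 0.000944) and higher at 13.5 dpc by 0.93. The change of that difference was 2.16 (SE 0.36, adjusted p = 2.18e-05), and 2.02 by the second probe set (adjusted p = 0.000131). In the XX cells at 11.5 dpc Nr2f2, a marker of interstitial cells, stood at 9.41 to 9.63 against 8.18 to 8.59 in XY cells, and Cyp11a1, a steroidogenic enzyme, at 7.16 to 8.57 against 6.73 to 7.06. Other markers of the same lists ran the other way, Pdgfra at 7.66 to 8.15 in XX and 9.54 to 9.85 in XY cells (1.80, adjusted p = 1.13e-06) and Star at 6.24 to 6.53 and 6.72 to 7.58 (0.63, adjusted p = 0.0948). The mean of 5 measured stromal markers of 6 lay at 7.72 to 7.84 in XX and 7.74 to 7.88 in XY cells, and that of the 4 steroidogenic markers at 5.96 to 6.14 and 5.94 to 6.15. From 11.5 to 13.5 dpc the XX cells also fell in Nr2f2 (-1.459, adjusted p = 0.000126), Pdgfra (-0.955, adjusted p = 0.0139) and Cyp11a1 (-2.412, adjusted p = 1.31e-11). Hsd3b1 of the steroidogenic list rose (0.717, adjusted p = 0.0309), and the other measured markers of both lists did not pass. The part of interstitial or steroidogenic cells in the results for Idi1 was not tested. Germ cells held Idi1 between 8.12 and 9.32 in every array used.

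Of the 31 genes, 2 changed their karyotype difference between 11.5 and 13.5 dpc in supporting cells upward, beside 2.71% of all genes, and none downward by limma, beside 1.55%. The count upward was 6 with row sets aligned and 6 in a fit of only the arrays compared. Beside Idi1, the gene called was Scd2, by 0.95 (SE 0.29, adjusted p = 0.0483), which was lost in 11 of 12 fits without 1 array with adjusted p up to 0.263, and with all 36 arrays (adjusted p = 0.627). The second probe set of Acaca changed by -1.44 (adjusted p = 0.0143), where the first gave -0.47 (adjusted p = 0.72). Acss2 (1.10, adjusted p = 0.0501), Ebp (1.41, adjusted p = 0.0531) and Nsdhl (1.11, adjusted p = 0.0671) fell just outside.

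Stage was compared within each lineage. From 11.5 to 13.5 dpc 2 of 31 genes rose in XX cells, beside 2.37% of all genes, and 1 fell, beside 1.73%, and with row sets aligned 3 rose and 3 fell. In XY cells 9 rose, beside 6.6%, and 1 fell, beside 2.27%, and with quantile normalisation 6 rose and 3 fell. The medians were -0.01 and 0.27, beside -0.03 and 0.02 over all genes. The genes that rose most in XY cells were Nsdhl, from 8.96, 9.43 and 8.76 to 10.24, 10.28 and 10.25 (1.20, SE 0.25, adjusted p = 0.000576), and Acss2, from 6.45, 7.18 and 7.16 to 8.12, 8.05 and 8.10 (1.16, SE 0.24, adjusted p = 0.000438). Scd2 rose by 0.81 (adjusted p = 0.00572). Ebp, Msmo1, Hsd17b7, Fdps and Scap rose and Idi1 fell, with adjusted p between 0.0167 and 0.0473, and each of these calls was lost in 2 to 6 of 6 fits without 1 array. Msmo1 and Hsd17b7 were lost most clearly without the third XY array of 11.5 dpc (0.53 and 0.52, adjusted p = 0.417 and 0.427).

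Abca1 rose with time in each of the 4 lineages, from group means of 6.96 to 8.20 in XX germ cells (1.24, SE 0.22, adjusted p = 2.88e-05), 7.01 to 7.72 in XY germ cells (0.71, adjusted p = 0.0322), 7.71 to 8.62 in XX supporting cells (0.91, adjusted p = 0.00506) and 7.56 to 8.42 in XY supporting cells (0.86, adjusted p = 0.00568). The arrays of 11.5 and 13.5 dpc did not overlap in any of the 4. The call in XY germ cells was lost without the first or second array of 11.5 dpc or the third of 13.5 dpc (adjusted p up to 0.22). Insig2 rose in XX supporting cells by 0.75 (adjusted p = 0.0443), which was lost in 5 of 6 fits without 1 array (adjusted p up to 0.365).

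**Figure D4:**
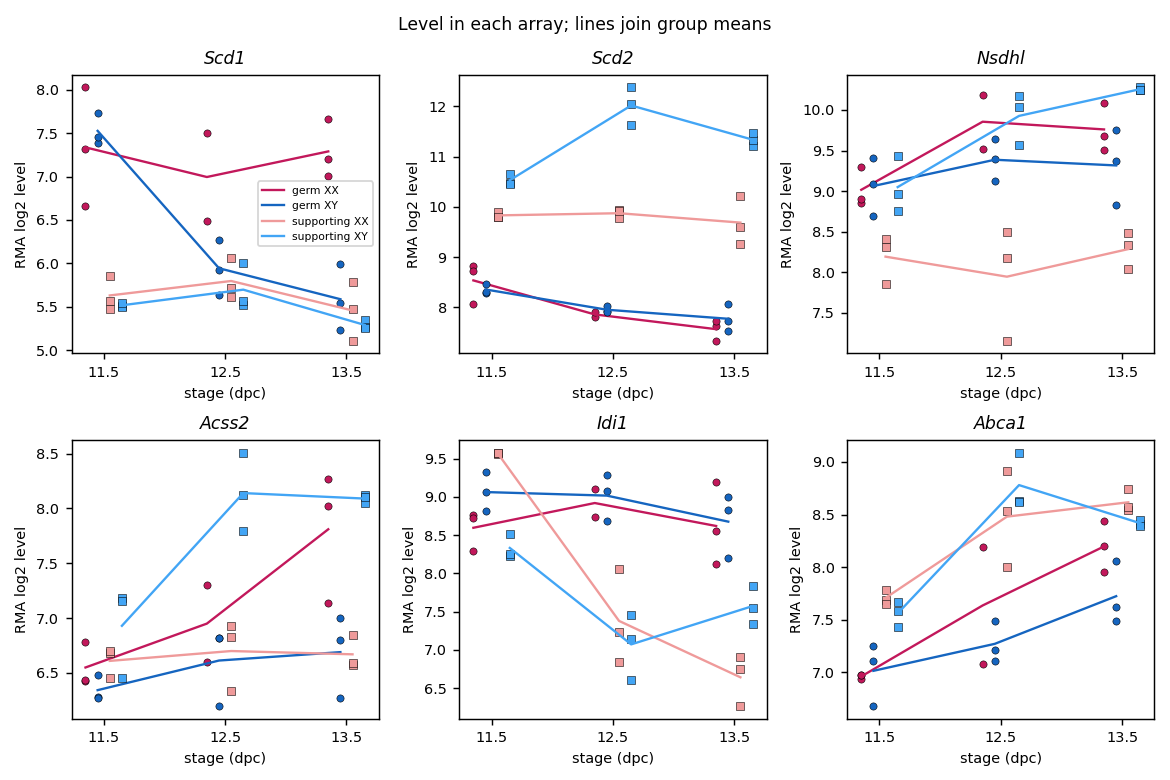
Points are the log2 levels of single arrays (circles for germ cells, squares for supporting cells, red shades for XX and blue shades for XY) against the stage in dpc, and lines join group means. Scd1 parts the germ cells at 13.5 dpc (7.29 in XX and 5.58 in XY), Scd2, Nsdhl and Acss2 part the supporting cells, Idi1 falls in XX supporting cells from 9.57 to 6.64, and Abca1 rises in all 4 lineages.

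In germ cells calls between karyotypes became more frequent with stage, among the 31 genes as among all genes. At 11.5 dpc no gene of the 31 differed between XY and XX germ cells by limma, beside 0.0251% of all genes higher and 0% lower. An unadjusted p under 0.05 was found for 2 of the 31, or 6.45%, and for 2.94% of all genes. At 12.5 dpc, with 2 XX arrays, 1 gene, Scd1, was lower in XY cells, beside 1.37% of all genes, and none higher, beside 0.426%. At 13.5 dpc 2 were higher in XY cells, beside 5.28%, and 3 lower, beside 3.93%. The split was 1 and 7 with row sets aligned, 2 and 6 with quantile normalisation and 2 and 5 with arrays centred. The median of the 31 differences at 13.5 dpc was -0.17, beside 0.07 over all genes. At that stage an unadjusted p under 0.05 was found for 11 of the 31, or 35.5%, and for 19.2% of all genes.

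Scd1 stood at 7.66, 7.01 and 7.20 in XX germ cells at 13.5 dpc and at 5.23, 5.54 and 5.99 in XY germ cells. The karyotypes did not overlap, and they differed by -1.71 (SE 0.25, adjusted p = 1.19e-06), with the XY cells near the 5.11 to 5.79 of supporting cells of that stage. At 12.5 dpc the XX arrays stood at 7.50 and 6.49 and the XY arrays at 5.92, 6.27 and 5.64, a difference of -1.05 (SE 0.28, adjusted p = 0.0289) that was lost without the first XX array (-0.55, adjusted p = 0.394) or without the first or the third XY array (adjusted p = 0.072 and 0.119). XY germ cells fell by 1.94 from 11.5 to 13.5 dpc (difference -1.94, SE 0.25, adjusted p = 5.95e-08). The karyotype difference changed by -1.90 over these days (SE 0.35, adjusted p = 0.000363), and in this fit 1 of the 31 genes was called downward, beside 1.66% of all genes, and none upward by limma, beside 1.58%. With row sets aligned 3 were called downward, and with quantile normalisation 2.

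Acss2 was also lower in XY germ cells at 13.5 dpc, at 6.27, 7.00 and 6.80 against 8.02, 7.14 and 8.27, a difference of -1.12 (SE 0.24, adjusted p = 0.000798). Acaca differed by -0.88 (adjusted p = 0.00467), which was lost without the third XX array (-0.67, adjusted p = 0.0963), and its second probe set by -0.59 (adjusted p = 0.201). Hsd17b7, a ketosteroid reductase of the sterol route, was higher in XY cells by 0.85 (adjusted p = 0.027) and Srebf2 by 0.61 (adjusted p = 0.0395), and each was lost in 4 of 6 fits without 1 array, with adjusted p up to 0.328 and 0.256. Elovl6 (0.89, adjusted p = 0.0518) did not pass. Fdft1 did not pass by its first probe set (0.61, adjusted p = 0.2) but was higher in XY cells by its second (0.83, adjusted p = 0.0245).

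In germ cells, too, stage was compared within each karyotype. From 11.5 to 13.5 dpc 3 of 31 rose in XX germ cells, beside 5.83% of all genes, and 7 fell, beside 9.45%, and with row sets aligned 6 rose and 8 fell. In XY germ cells 1 rose, beside 2.9%, and 2 fell, beside 4.19%, and with row sets aligned 1 rose and 5 fell. The medians were -0.14 and -0.30, beside -0.14 and -0.03 over all genes. In XX germ cells Acss2 rose from 6.43, 6.44 and 6.78 to 8.02, 7.14 and 8.27 (1.26, SE 0.24, adjusted p = 9.18e-05), with no overlap. Elovl6 fell from 9.96, 10.20 and 10.17 to 8.76, 9.57 and 8.57 (-1.14, SE 0.30, adjusted p = 0.00501), which was lost without the third array of 13.5 dpc (-0.94, adjusted p = 0.0606). Scd2 (-0.97, adjusted p = 0.000438), Sqle (-0.91, adjusted p = 0.00144) and Fasn (-0.87, adjusted p = 0.00209) fell. Fdft1 (-0.97, adjusted p = 0.0105) fell as well, which was lost without the first array of 11.5 dpc (-0.82, adjusted p = 0.0847), and its second probe set gave -0.68 (adjusted p = 0.058). Ebp fell by 1.05 in XX and by 1.01 in XY germ cells (differences -1.05 and -1.01, adjusted p = 0.0139 and 0.0344), and these calls were lost in 3 and 4 of 6 fits without 1 array. Srebf2 (-0.65) fell and Nsdhl (0.74) rose, lost in 3 and 4 of 6 such fits.

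Genes of related pathways were counted in germ cells too. In XY germ cells at 13.5 dpc 3 of 8 genes of fatty acid oxidation were higher than in XX germ cells, beside the 5.28% of all genes, and 1 lower, beside 3.93%. Cpt1a, which admits fatty acids to mitochondria, averaged 8.47 in XY and 6.85 in XX germ cells (1.62, SE 0.22, adjusted p = 4.19e-07), and Acadm, a medium-chain dehydrogenase, 9.72 and 8.37 (1.35, SE 0.22, adjusted p = 1.35e-05). Lipa, the lysosomal lipase that frees cholesterol from its esters, averaged 8.87 and 7.30 (1.58, SE 0.23, adjusted p = 1.97e-06) and rose in XY germ cells by 2.20 from 11.5 to 13.5 dpc (adjusted p = 6.26e-10). Npc1 (-0.11, adjusted p = 0.849) and Npc2 (-0.04, adjusted p = 0.953), which carry the freed cholesterol out of the lysosome, did not pass. Abcg1 of the same list was higher in XY germ cells (0.58, adjusted p = 0.0425), though not with all 36 arrays (0.0581). No other gene of that list passed. From the list of sterol sensing and SREBP cleavage, Mbtps1 alone passed (0.78, adjusted p = 0.0109). These calls are to be read against the same 5.28% and 3.93%. Of 15 genes of other fatty acid synthesis and elongation, 3 were lower in XY germ cells, beside the same 3.93%, among them Elovl1 (-0.93, adjusted p = 0.0149).

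The karyotype difference at 13.5 dpc was itself compared between the cell classes, in a comparison added after the values were seen. This comparison cannot be told apart from the reporter line and strain, which differed between karyotypes in supporting cells alone. The karyotype difference was more positive in supporting than in germ cells for 8 of 31 genes, beside 6.12% of all genes. It was less so for none by limma, beside 5.08%. With row sets aligned it was more positive for 14, which added Pmvk, Idi1, Tm7sf2, Scap, Fasn and Stard4, and with all 36 arrays for 6. Acss2 was higher in XY supporting cells (1.42) and lower in XY germ cells (-1.12), a difference of 2.54 (SE 0.34, adjusted p = 8.97e-08). For Nsdhl the values were 1.97 and -0.45, a difference of 2.42 (SE 0.36, adjusted p = 9.65e-07). Scd1 was among the 8 through its germ cell difference (-1.71, against -0.17 in supporting cells). In supporting cells Scd1 stood at 5.11 to 6.06, below every array median (6.54 to 7.01), so a karyotype difference there may not show. Acaca was among them by its first probe set (0.35 in supporting and -0.88 in germ cells), while its second gave -0.27 and -0.59, neither past the test (adjusted p = 0.742 and 0.201).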

How the data were processed

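Affymetrix Mouse Gene 1.0 ST arrays measured total RNA of sorted cells, per the labels' protocols. The deposited log2 values were normalised by RMA, per the submitters' processing notes, with no version stated there. Of 35557 probe sets, 21789 had 1 gene symbol, 1621 several and 12147 none. Each gene took its probe set of highest mean, which gave 19938 genes, and 3 of the 31 genes have a second probe set. limma 3.58.1 in R 4.3.3 (lmFit, eBayes) was fitted to 12 group means over 35 arrays with 23 residual degrees of freedom, with Benjamini-Hochberg adjustment over all genes, and was tested on simulated data. In 35 arrays the table's rows fell into 3 interleaved linear scales, and in 1 array into 2, with gaps of 0.0157 to 0.748.

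The genes and lists were chosen with earlier results of these data known. The rule named, per comparison, up to 8 of the 31 genes with the largest difference past the test and up to 3 per role that did not pass, and up to 3 genes of each related list. Genes named beyond it were chosen after their values were seen. Alternatives were all 36 arrays, aligned row sets, centred or quantile-normalised arrays, dim genes left out, mean of probe sets, a replicate block, separate fits and each array left out. Aligned row sets with all 36 arrays, the comparison of karyotype differences between cell classes and the second probe sets were added after seeing the data. Replicate numbers did not pair the samples: no comparison had every pair correlated over 0.1 (35 pairs, -0.524 to 0.203). The labels give no depth, and the number of arrays limits the precision. Interstitial cells were not analysed here.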

Additional observations from a re-analysis of the deposited data

Results flagged for a closer look

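Karyotype differences (XY minus XX, log2) that themselves differed between stages or cell classes were singled out by limma's test of that difference. From 11.5 to 13.5 dpc the difference of Scd1 in germ cells changed by -1.897. In supporting cells that of Idi1 changed by 2.164 and that of Scd2 by 0.951. At 13.5 dpc the difference in supporting cells exceeded that in germ cells by 2.540 for Acss2, 2.417 for Nsdhl, 1.539 for Scd1, 1.451 for Ebp, 1.445 for Scd2, 1.281 for Fdps, 1.233 for Acly and, by its first probe set, 1.235 for Acaca. The second Acaca probe set gave a difference of -0.268 in supporting and -0.590 in germ cells. With row sets aligned 14 of the 31 genes passed that comparison, which cannot be told apart from the reporter line and strain. With all 36 arrays Scd2 (adjusted p = 0.0878) and Ebp (adjusted p = 0.105) no longer passed by limma. In the XX germ cell array that was left out, Insig2 stood at 9.63, above the highest of the other 35 arrays. Groups of 3 were not searched for single outlying arrays.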

How the results depend on the processing

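No call of the 108 called differences reversed under any alternative run. Without 1 array at a time, 62 kept their call and 46 lost it at least once. The number of the 31 genes called then ranged, for XY against XX germ cells, over 0 to 1, 0 to 1 and 3 to 5 at the 3 stages, and for supporting cells over 1 to 3, 8 to 11 and 7 to 10. Over time it ranged over 7 to 12 in XX germ cells, 1 to 5 in XY germ cells, 2 to 3 in XX supporting cells and 4 to 7 in XY supporting cells. For germ against supporting cells it ranged over 18 to 21 at 11.5 dpc, 12 to 14 in XX and 10 to 14 in XY gonads at 13.5 dpc, and for the change of the karyotype difference over 1 to 2 in germ and 1 to 3 in supporting cells. With all 36 arrays, counts fell to 3 for germ cells and to 1 for supporting cells between karyotypes (13.5 and 11.5 dpc), to 6 and 1 over time in XX and XY germ cells, to 4 in XY supporting cells and to 1 for the change in supporting cells. With row sets aligned, counts were 8 (germ cells by karyotype, 13.5 dpc), 7 and 16 (supporting cells by karyotype, 11.5 and 12.5 dpc), 6 over time in XY germ and 6 in XX supporting cells, and 3 and 6 for the change in germ and supporting cells. Aligned sets with all 36 arrays gave 15 (supporting cells, 12.5 dpc), 5 and 5 over time in XY germ and XX supporting cells, and 3 and 4 for the changes. Quantile normalisation gave 8 (germ cells, 13.5 dpc) and 2 (change in germ cells), and leaving out dim genes 4 for the change in supporting cells. Fits of only the arrays compared gave 2 (germ cells, 12.5 dpc), 17 (supporting cells, 13.5 dpc) and 6 (change in supporting cells). The replicate block gave 2 at 12.5 dpc in germ cells. None of the comparisons whose counts fell with all 36 arrays includes the group of the added array, and their differences stayed the same. The cause of the changed counts was not tested. Replicate numbers are only names here, so the block is no pairing.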
